A study of Mus musculus with 6 samples.

Results

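PRC2 is the Polycomb complex that methylates histone H3 at lysine 27, and the genes of 10 of its subunits were followed in mouse T cells at rest and after activation. The members were taken by gene symbol from the 49671 genes of the deposited tables, by a rule that uses no measured value although the set was proposed with earlier results of these data known, and all 10 were present in both tables. They are the catalytic subunits Ezh1 and Ezh2, the core subunits Eed, Suz12, Rbbp4 and Rbbp7, and the accessory subunits Mtf2, Phf19, Jarid2 and Aebp2. RNA was measured in CD3+ T cells from the spleens of F1 females whose mothers were C57BL/6 (mus) heterozygous for an Xist deletion and whose fathers were Mus musculus castaneus (cast). All 6 libraries share that cross, and where a daughter carries the deletion her mus X stays active and her cast X is silenced. Of 298 X-linked genes other than Xist with 20 or more allele-assigned reads in every library, 118 had no cast read in any. The others had a cast read in some library. The mus X was taken as the active one from the cross and these counts. Day 0 cells were collected without stimulation (unstimulated, 3 libraries), and day 2 cells were cultured for 48 h with 1 µg/ml plate-bound anti-CD3 and 10 µg/ml soluble anti-CD28 (stimulated, 3 libraries). These antibodies engage the T cell receptor and its costimulatory receptor. The labels give no ages for the mice, and no culture without the antibodies is among the samples, so time in culture and stimulation cannot be told apart.

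The core of PRC2 consists of a methyltransferase, EZH1 or EZH2, with EED, which binds the methylated product, SUZ12, which holds the complex together, and a histone-binding protein, RBBP4 or RBBP7. EZH2 is the more active enzyme and is typical of dividing cells, while EZH1 is typical of resting cells. Accessory subunits define alternative forms: the Polycomb-like proteins PHF1, MTF2 and PHF19 belong to PRC2.1, and JARID2 and AEBP2 belong to PRC2.2. In T cells PRC2 is known for restraining cytokine and lineage genes, and on the inactive X its mark covers silenced chromatin.

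Promoter sequences are shown for the member that fell (Ezh1) and for the 3 members whose promoter held letters of an E2F-type site (Ezh2, Suz12 and Phf19), since E2F factors are known to drive genes of division, Ezh2 among them. They come from RefSeq on build GRCm38.p6 and run 5′ to 3′ along the gene's strand, from 250 bases before the start to 50 after it. The letters TTTGGCGC, TTTCCCGC and TTTCGCGC were searched on both strands, and matches are in capitals.
Ezh1, chr11:101226414-101226713, minus strand: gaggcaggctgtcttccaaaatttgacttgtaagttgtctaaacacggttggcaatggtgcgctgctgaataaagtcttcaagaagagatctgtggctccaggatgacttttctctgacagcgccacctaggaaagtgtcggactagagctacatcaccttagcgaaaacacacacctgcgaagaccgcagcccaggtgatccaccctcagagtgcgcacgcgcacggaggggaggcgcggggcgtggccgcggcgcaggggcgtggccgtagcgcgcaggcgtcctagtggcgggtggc
Ezh2, chr6:47594981-47595280, minus strand: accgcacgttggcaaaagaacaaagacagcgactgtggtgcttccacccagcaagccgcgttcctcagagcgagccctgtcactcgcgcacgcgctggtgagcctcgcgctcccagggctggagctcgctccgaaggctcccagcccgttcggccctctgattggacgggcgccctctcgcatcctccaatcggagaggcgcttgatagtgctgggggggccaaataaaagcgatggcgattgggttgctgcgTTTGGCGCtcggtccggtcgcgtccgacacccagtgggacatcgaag
Suz12, chr11:79992856-79993155, plus strand: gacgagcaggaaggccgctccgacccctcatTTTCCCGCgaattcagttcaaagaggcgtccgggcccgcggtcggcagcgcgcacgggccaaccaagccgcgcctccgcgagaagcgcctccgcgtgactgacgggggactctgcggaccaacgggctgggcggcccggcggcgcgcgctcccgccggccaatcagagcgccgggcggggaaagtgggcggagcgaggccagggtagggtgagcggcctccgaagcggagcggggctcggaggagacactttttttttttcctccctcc
Phf19, chr2:34913927-34914226, minus strand: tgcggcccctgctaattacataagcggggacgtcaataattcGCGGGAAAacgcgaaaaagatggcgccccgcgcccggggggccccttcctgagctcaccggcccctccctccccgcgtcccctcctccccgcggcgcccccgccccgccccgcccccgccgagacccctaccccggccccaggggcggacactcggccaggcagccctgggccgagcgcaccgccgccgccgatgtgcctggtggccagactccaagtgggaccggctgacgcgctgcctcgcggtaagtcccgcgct
The Ezh2 window held TTTGGCGC from its base 254, just past the start. The Suz12 window held TTTCCCGC from base 32, and the Phf19 window held the same letters on its other strand from base 43. All 10 members had an entry, with 14 windows in all, and 3 of the 10 genes held a match. Eed, Rbbp4, Rbbp7, Mtf2 and Aebp2, which were also called higher by RPKM after stimulation, held none, and neither did Jarid2. Of 32851 promoter windows of this length, 0.514% held TTTGGCGC, 1.07% held TTTCCCGC, 0.323% held TTTCGCGC and 1.84% held at least 1 of them. These shares count windows, whereas 3 of 10 counts genes. A match is a description of letters and not of a bound site, and the absence of these letters from the Ezh1 window says nothing about the factors.

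Expression is given as RPKM (reads divided by gene length in kilobases and by library depth), which allows levels of different genes to be set side by side. Allele-assigned reads numbered 9.61 M to 20.2 M (M for mega) per library, and the cast share over autosomal genes was 49.3% to 49.4% in each. T cell markers were present in both groups, with a summed level over 16 genes of 1809 to 2225 RPKM unstimulated and 1807 to 1881 stimulated. The unstimulated libraries also held RNA of other cells. Summed over 12 genes each, myeloid markers reached 1246 to 3492 RPKM and B cell markers 449.8 to 782.3, against 25.5 to 30 and 53.8 to 92.0 stimulated, where the myeloid markers Adgre1 and Elane were listed at 0 in every library. The 8 NK cell markers summed to 280.6 to 387.4 RPKM unstimulated and 10.8 to 16.5 stimulated, and the 14 erythroid and platelet markers to 121.0 to 1547 and 3.99 to 18.3. Unstimulated replicate 3 stood apart. The mean log2(RPKM + 1) of 26 cell cycle genes was 3.86 there, against 2.51 and 2.48 in unstimulated replicates 1 and 2 and 5.5 in each stimulated library. The myeloid mean was highest there as well, at 6.04 against 4.83 and 5.06. The part that this difference in cell make-up has in the results below was not tested, and in these bulk samples fewer cells of a type and less RNA per cell cannot be told apart.

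The 1st comparison asked how expression of the members differed between stimulated and unstimulated cells. Of the 10 members 8 rose with stimulation (Rbbp7 by RPKM but not in allelic reads), 1 fell (Ezh1) and 1 did not pass the test (Jarid2), with limma on log2(RPKM + 1) and Benjamini-Hochberg adjustment over all 13288 genes tested at a threshold of 0.05. Among all genes tested 31.2% were called higher and 48.9% lower. That balance depended on scaling, with 40.9% higher and 39.2% lower after median centring (members 9 and 1) and 40.6% and 36.7% after quantile normalisation (members 8 and 1). The groups did not overlap for 9 members, where 83.5% of all genes did not overlap, so separation of the groups by itself is close to the background. The median log2 fold change was 1.01 over the members and -0.24 over all genes tested. Without unstimulated replicate 3 the counts were again 8 and 1. A log2 fold change here is a difference of mean log2(RPKM + 1), which understates the change of low genes, and a fold is a ratio of mean RPKM.

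**Figure D1:**
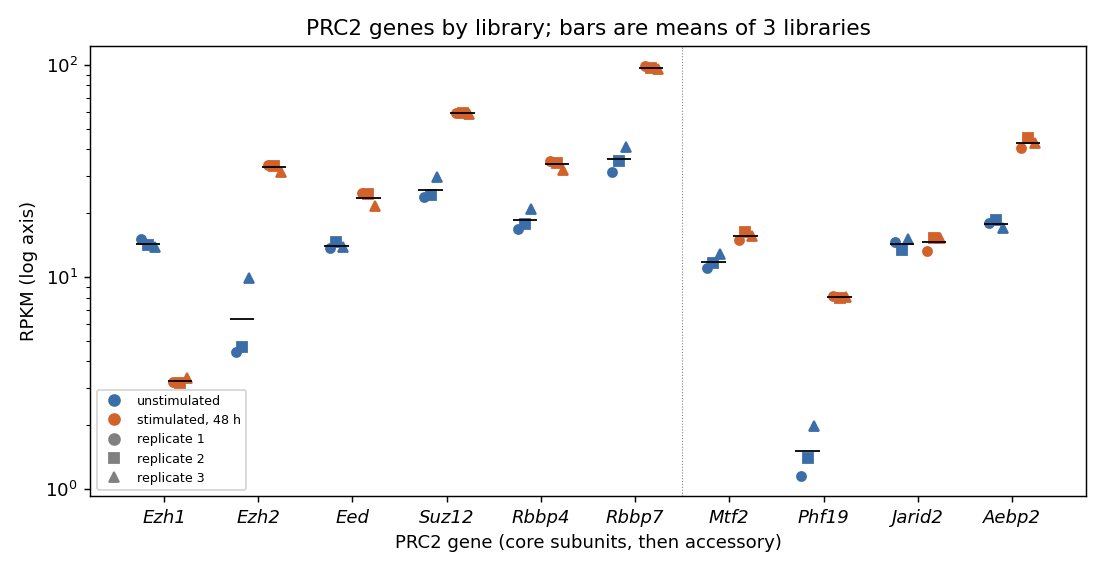
RPKM of the 10 PRC2 genes on a log axis, with blue for unstimulated and orange for stimulated libraries, a symbol shape per replicate and black bars for the means of 3 libraries. Ezh1 lies lower in all stimulated libraries, Jarid2 overlaps between the groups, and the other 8 genes lie higher in all stimulated libraries, with unstimulated replicate 3 of Ezh2 at 9.93 above replicates 1 and 2.

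The catalytic subunits moved in opposite directions. Ezh1 (chr11:101191115-101226463, minus strand, GENCODE M21 on mm10) was at 15.1, 14.2 and 13.9 RPKM in unstimulated replicates 1 to 3 and at 3.20, 3.15 and 3.35 in the stimulated ones. The libraries of each group lay close together and far from the other group. Ezh1 thus fell from 14.4 ± 0.63 to 3.23 ± 0.10 RPKM (SD, n = 3 each), 4.45-fold lower (log2 -1.86, SE 0.06, limma adjusted p = 1.7e-06). Ezh2 (chr6:47530139-47595341, minus strand) was at 4.41, 4.69 and 9.93 RPKM unstimulated and at 33.8, 33.4 and 31.4 stimulated. All stimulated libraries were above all unstimulated ones, and unstimulated replicate 3 was 2.18 times the mean of replicates 1 and 2. Ezh2 rose from 6.34 ± 3.11 to 32.8 ± 1.30 RPKM (SD, n = 3 each), 5.18-fold (log2 2.28, SE 0.26, limma adjusted p = 0.000204). Without unstimulated replicate 3 the log2 change was 2.61.

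The balance of the catalytic pair was read as the Ezh2 share of summed Ezh1 and Ezh2 RPKM. It was 22.6%, 24.8% and 41.8% unstimulated and 91.4%, 91.4% and 90.4% stimulated. Ezh1 was thus the more abundant transcript in every unstimulated library and Ezh2 in every stimulated one. The mean share went from 29.7% ± 10.5 to 91.0% ± 0.58 (SD, n = 3 each), which is 61.3 points higher (p = 0.1 by an exact two-sided permutation test, the smallest that 3 against 3 libraries can give). The sum of both genes was 20.7 ± 2.65 RPKM unstimulated and 36.1 ± 1.21 stimulated (SD, n = 3 each), 1.74 times as high.

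**Figure D2:**
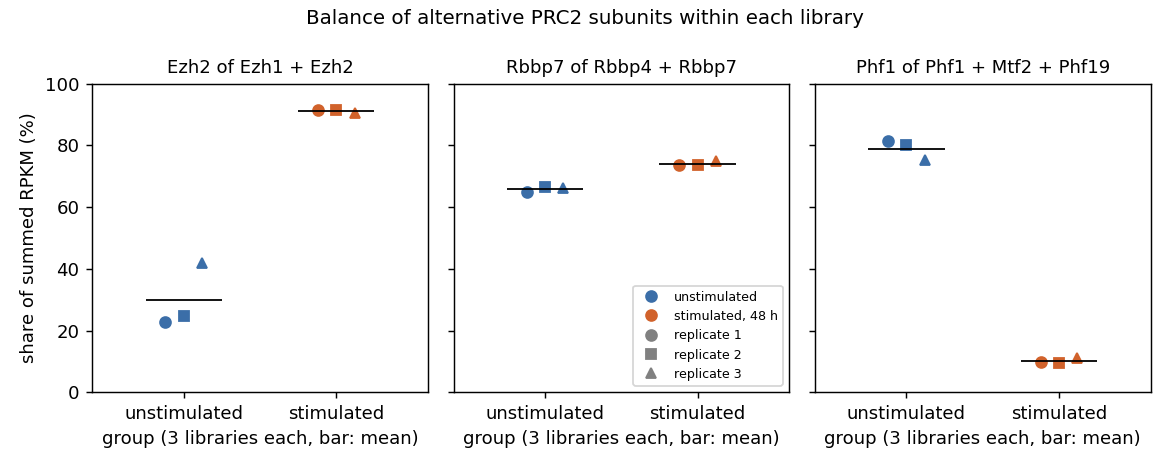
Share of summed RPKM taken by 1 gene among alternative PRC2 subunits, in percent, for each of 3 unstimulated (blue) and 3 stimulated (orange) libraries, with black bars for means. Ezh2 goes from 22.6% to 41.8% up to 90.4% to 91.4%, Rbbp7 from 65.0% to 66.5% up to 73.5% to 74.9%, and Phf1, which is outside the 10 genes, from 75.3% to 81.4% down to 9.54% to 11.2%.

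Eed (chr7:89954654-89980983, minus strand), whose protein binds trimethylated lysine 27 and stimulates the enzyme, was at 13.7, 14.6 and 13.8 RPKM unstimulated and at 24.99, 24.5 and 21.5 stimulated. The unstimulated libraries lay close together, with replicate 3 at 0.974 times the mean of replicates 1 and 2. Eed rose by 0.71 on the log2 scale (SE 0.07, limma adjusted p = 0.00012). Suz12 (chr11:79993106-80034123, plus strand), the scaffold of the complex, was at 23.7, 24.3 and 29.5 RPKM unstimulated and at 59.2, 59.5 and 58.8 stimulated. The stimulated libraries agree within 1 RPKM, while unstimulated replicate 3 was 1.23 times the mean of the other two. The rise of Suz12 was from 25.8 ± 3.18 to 59.2 ± 0.33 RPKM (SD, n = 3 each), or 1.17 on the log2 scale (SE 0.09, limma adjusted p = 2.78e-05).

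Rbbp4 and Rbbp7 encode close paralogs that bind histones in PRC2 and also in the NuRD, Sin3 and CAF-1 complexes. Rbbp4 (chr4:129307100-129335370, minus strand) was at 16.9, 17.7 and 20.9 RPKM unstimulated and at 35.4, 34.5 and 32.0 stimulated. The rise was from 18.5 ± 2.14 to 34.0 ± 1.74 RPKM (SD, n = 3 each), or 0.85 on the log2 scale (SE 0.09, limma adjusted p = 0.000138). Rbbp7, the X-linked member (chrX:162760402-162779092, plus strand), was at 31.3, 35.2 and 41.0 RPKM unstimulated and at 98.3, 96.9 and 95.7 stimulated. By RPKM it was the most abundant member in both groups, and it rose from 35.8 ± 4.89 to 97.0 ± 1.34 (SD, n = 3 each, log2 1.42, SE 0.10, limma adjusted p = 1.96e-05).

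The allele-assigned reads of Rbbp7 did not show this rise. They numbered 117, 101 and 118 unstimulated and 130, 127 and 178 stimulated. Per M of allelic reads this was 10.1 ± 0.35 and 8.18 ± 0.99 (SD, n = 3 each), a ratio of 0.81. On these reads the log2 change was -0.06 with edgeR and TMM scaling (adjusted p = 0.763) and -0.09 with DESeq2 (adjusted p = 0.740). The log2 ratio of mean RPKM exceeded that of allelic reads per M by 1.74, a gap larger in size than that of 99.6% of the 10241 genes compared, whose median gap was -0.17. For the other 9 members the gap was between -0.26 and 0.32. The allelic reads of Rbbp7 were few for its level, with 336 at a mean of 35.8 RPKM unstimulated. Rbbp4 had 3835 at 18.5 RPKM. The sources do not say which reads entered each table, the cause of the gap was not tested, and the direction of Rbbp7 therefore depends on the table. Txlng on the opposite strand shares 174 bases with Rbbp7 and had lower values after stimulation, at 5.25 to 5.87 RPKM unstimulated and 3.02 to 3.23 stimulated.

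The Rbbp7 share of summed Rbbp4 and Rbbp7 RPKM was 65.0%, 66.5% and 66.2% unstimulated and 73.5%, 73.8% and 74.9% stimulated. The groups do not overlap, and the means differed by 8.17 points (exact two-sided permutation test, p = 0.1, the smallest possible). The share rests on the RPKM of Rbbp7 and carries the same limit. The sum of both was 54.3 ± 6.99 unstimulated and 131.0 ± 3.05 RPKM stimulated (SD, n = 3 each, exact permutation p = 0.1), a ratio of 2.41.

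**Figure D3:**
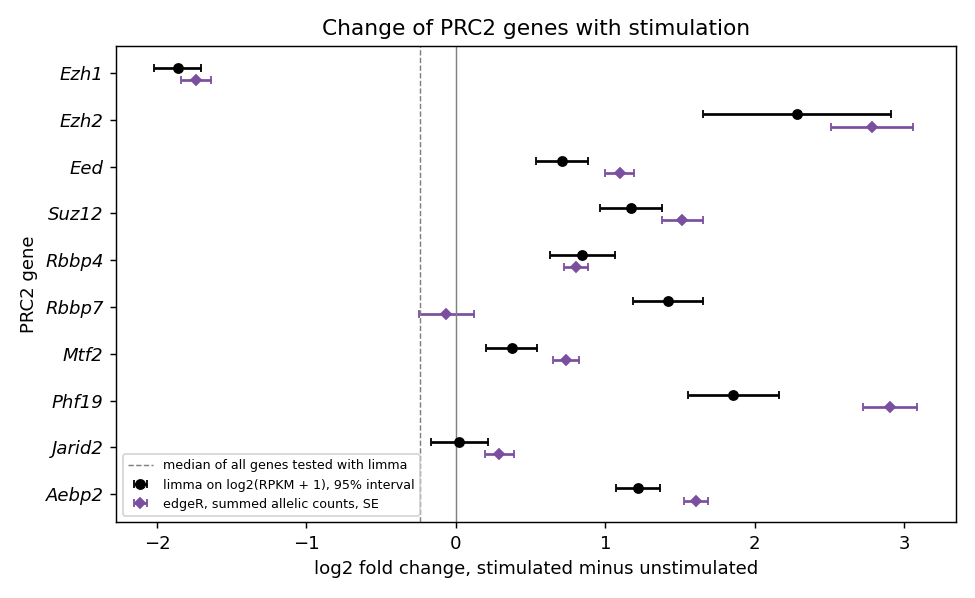
Log2 fold change of each PRC2 gene, stimulated minus unstimulated, from limma on log2(RPKM + 1) (black, 95% interval) and from edgeR with TMM scaling on summed allelic counts (purple, SE), with the limma median of all genes as a dashed line at -0.24. Ezh1 is negative in both and Rbbp7 is the only member with a positive limma value (1.42) and a negative edgeR value (-0.06).

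Among the PRC2.1 subunits, Phf19 (chr2:34893757-34914026, minus strand), which binds methylated lysine 36 and CpG-rich DNA, was the least abundant member before stimulation. It was at 1.16, 1.40 and 1.99 RPKM unstimulated and at 8.11, 7.93 and 8.05 stimulated. Unstimulated replicate 3 was 1.56 times the mean of replicates 1 and 2, as with Ezh2. Phf19 rose 5.29-fold, from 1.52 ± 0.43 to 8.03 ± 0.09 RPKM (SD, n = 3 each), or by 1.86 on the log2 scale (SE 0.13, limma adjusted p = 1.97e-05). Mtf2 (chr5:108065674-108109004, plus strand), another Polycomb-like protein that brings PRC2 to CpG islands, was at 11.04, 11.7 and 12.8 RPKM unstimulated and at 14.9, 16.3 and 15.6 stimulated. Its rise was small (log2 0.37, SE 0.07, limma adjusted p = 0.00257). Tmed5 on the opposite strand shares 2639 bases with Mtf2 and was at 8.69 to 10.6 RPKM unstimulated and 16.8 to 18.6 stimulated. Without knowledge of the strand setting of the counts, reads of Mtf2 and Tmed5 in that stretch cannot be told apart.

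Among the PRC2.2 subunits, Aebp2 (chr6:140622663-140678472, plus strand), a zinc finger protein that stabilises the complex, was at 17.9, 18.6 and 17.1 RPKM unstimulated and at 40.7, 45.2 and 42.8 stimulated. Unstimulated replicate 3 was the lowest of its group, unlike for Ezh2 and Phf19. Its mean went from 17.9 ± 0.75 up to 42.9 ± 2.24 RPKM (SD, n = 3 each), a log2 change of 1.22 (SE 0.06, limma adjusted p = 5.81e-06). Jarid2 (chr13:44729474-44921643, plus strand), whose protein recruits and stimulates PRC2, was at 14.6, 13.3 and 15.1 RPKM unstimulated and at 13.2, 15.3 and 15.3 stimulated. The groups overlap, and the log2 change was 0.02 with a 95% interval from -0.17 to 0.22 (limma adjusted p = 0.796). Relative to the median gene it passed the test as higher, at 0.28 after median centring (limma adjusted p = 0.0123) and at 0.29 with edgeR and TMM scaling on allelic counts (adjusted p = 0.0231).

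The PRC2.1 share of the 4 accessory members, Mtf2 and Phf19 over Mtf2, Phf19, Jarid2 and Aebp2, was 27.3%, 29.0% and 31.5% unstimulated and 29.9%, 28.6% and 28.9% stimulated. The groups overlap and the means differed by -0.12 points (exact two-sided permutation test, p = 0.9). This share leaves out Phf1, the remaining Polycomb-like gene, which is not among the 10 but in the list of other PRC2 subunits. Phf1 was at 53.3, 52.8 and 45.0 RPKM unstimulated and at 2.48, 2.55 and 2.96 stimulated. It was thus more abundant than any of the 10 members before stimulation and below all of them afterwards, and it fell 18.9-fold (log2 -3.81, SE 0.09, limma adjusted p = 5.34e-07). With Phf1 counted as PRC2.1 the share differed by -34.99 points. Among the 3 Polycomb-like genes, a grouping made after their values were seen, Phf1 held 78.9% ± 3.24 of the summed RPKM unstimulated and 10.1% ± 0.88 stimulated (SD, n = 3 each). Mtf2 held 18.7% ± 2.42 and 59.3% ± 1.35, and Phf19 2.41% ± 0.82 and 30.6% ± 1.12. Their sum was 63.7 ± 3.40 RPKM unstimulated and 26.3 ± 0.67 stimulated (SD, n = 3 each).

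The order of the members changed mainly through Ezh1 and Ezh2. Unstimulated means ran from Rbbp7 (35.8 RPKM) and Suz12 (25.8) through Rbbp4 (18.5), Aebp2 (17.9), Ezh1 (14.4), Jarid2 (14.3), Eed (14.1) and Mtf2 (11.8) to Ezh2 (6.34) and Phf19 (1.52). The ranges of Rbbp4 and Aebp2 overlapped, as did those of Ezh1, Jarid2 and Eed, so these neighbours have no order. Stimulated means ran from Rbbp7 (97.0 RPKM), Suz12 (59.2) and Aebp2 (42.9) through Rbbp4 (34.0), Ezh2 (32.8), Eed (23.7), Mtf2 (15.6) and Jarid2 (14.6) to Phf19 (8.03) and Ezh1 (3.23). Here the ranges of Rbbp4 and Ezh2 overlapped, and those of Mtf2 and Jarid2. Ezh2 moved from 9th to 5th place and Ezh1 from 5th to last.

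Unstimulated replicate 3 differed from the other unstimulated libraries by member. It was above both other unstimulated libraries for Ezh2, Phf19, Suz12, Rbbp7, Rbbp4, Mtf2 and Jarid2, by factors of 2.18, 1.56, 1.23, 1.23, 1.21, 1.13 and 1.08 over their mean. It was below both for Ezh1 (0.945) and Aebp2 (0.936), and between them for Eed. The same factor had a median of 3.36 over the 26 cell cycle genes (1.24 to 5.65) and of 1.08 over all genes tested. All 26 cell cycle genes rose with stimulation by RPKM (25 on summed allelic counts with edgeR, without Mcm6), with a median log2 change of 2.51 by RPKM, and Ezh2 at 2.28 lay near that median.

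**Figure D4:**
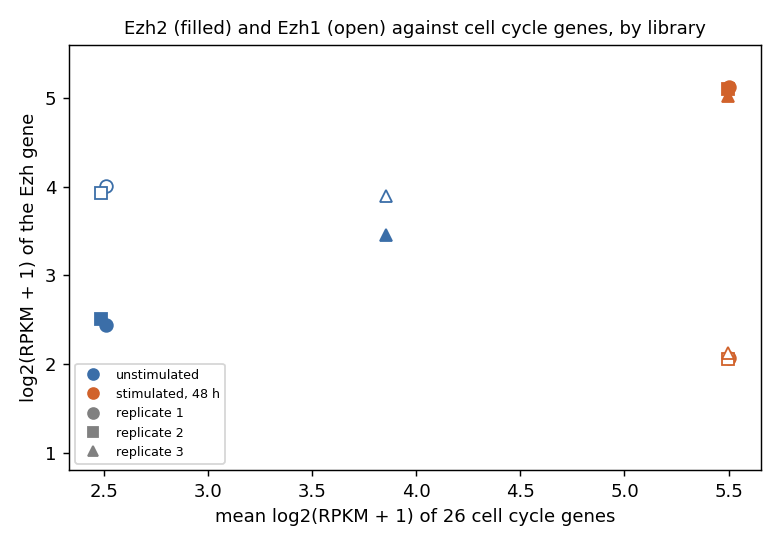
Log2(RPKM + 1) of Ezh2 (filled) and Ezh1 (open) against the mean log2(RPKM + 1) of 26 cell cycle genes in each library, blue unstimulated and orange stimulated. Unstimulated replicate 3 has a cell cycle mean of 3.86, between 2.48 to 2.51 in the other unstimulated libraries and 5.5 in the stimulated ones, and its Ezh2 level is likewise between them.

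The genes whose pattern over the 6 libraries was most like that of Ezh2 were taken by Pearson's r of log2(RPKM + 1). They were Cdca5, a cohesin regulator of dividing cells (r = 0.9999), Rad18, a ubiquitin ligase of DNA repair (0.9998), Sumo3 (0.9997), Gm44350 (0.9997) and Pus10 (0.9997). Cdca5 was at 1.35, 1.37 and 4.48 RPKM unstimulated and at 21.5, 21.2 and 19.6 stimulated, with the same high unstimulated replicate 3. For Ezh1 they were Gga3, Tnnt3, Adcy7, Scml4 and Jmy (r from 0.9998 to 0.9999). Scml4, a relative of the Polycomb gene Scm, was at 26.1, 25.2 and 23.4 RPKM unstimulated and at 1.07, 0.963 and 1.15 stimulated. Such values are a description of 6 libraries in 2 groups: 725 genes reached an r of 0.99 with Ezh2 and 1877 with Ezh1.

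The other PRC2 subunits and inhibitors went both ways, with 1 of 4 tested genes up and 3 down and a median log2 change of -1.17. Over all genes tested 31.2% were called higher and 48.9% lower. Phf1 is given above. Epop, a PRC2.1 partner, went up from 3.06 ± 0.90 to 22.0 ± 1.17 RPKM (SD, n = 3 each), a log2 change of 2.52 (limma adjusted p = 1.7e-05). Lcor (log2 -1.51) and Lcorl (-0.83), whose loci encode PRC2.1 partners too, fell, and the inhibitor Ezhip was listed at 0 in every library. Both tested demethylases that remove the PRC2 mark fell. Kdm6b went from 39.0 ± 2.28 to 19.1 ± 0.88 RPKM (log2 -0.99) and the X-linked Kdm6a from 24.6 ± 1.23 to 14.4 ± 0.23 (log2 -0.73, SD, n = 3 each). Their falls were larger than that of the median gene, at -0.24.

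PRC1, the Polycomb complex that ubiquitinates histone H2A and reads the PRC2 mark through CBX proteins, showed no common direction. Its 23 subunit genes gave 8 rises, 8 falls and 7 values short of the threshold, and a median log2 change of -0.07, which turned to 0.20 after median centring (11 rises, 8 falls) and 0.26 after quantile normalisation (12 and 7). The reader Cbx7 (20.8, 20.8 and 17.8 RPKM unstimulated, 5.24, 5.33 and 5.15 stimulated, log2 -1.73) fell. Pcgf5, which defines a variant PRC1, went up from 12.97 ± 0.84 to 38.5 ± 1.33 RPKM (SD, n = 3 each), a log2 change of 1.501. Of 9 tested genes of the deubiquitinase PR-DUB 2 rose, 5 fell and 2 did not pass (median -0.81, with 4 rises and 5 falls after median centring), and Mbd6 (-1.45), Foxk2 (1.32) and Asxl2 (-0.89) changed most. Of 11 methyltransferases for lysines 36 and 4, whose marks oppose PRC2, 9 fell, 1 rose and 1 did not pass (median -1.07). Setd1b (-1.76) and Kmt2c (-1.70) fell, and the riser was Nsd2 (1.62), a lysine 36 enzyme. Over all genes tested 31.2% were called higher and 48.9% lower (40.9% and 39.2% after median centring). No test set the counts of these lists apart from those shares.

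Rbbp4 and Rbbp7 are shared with other complexes, and of 17 genes of NuRD, Sin3 and CAF-1 11 rose, 4 fell and 2 did not pass (median log2 0.34). Chaf1a, the large subunit of the replication-coupled histone chaperone CAF-1, was at 2.27, 2.30 and 7.05 RPKM unstimulated and at 25.3, 26.6 and 25.8 stimulated (log2 2.60), so it too was high in unstimulated replicate 3. Chaf1b rose as well (1.38), while the NuRD remodeller Chd3 fell (-1.87). Of 13 E2F factors and pocket proteins 8 rose, 2 fell and 3 did not pass (median 0.65). E2f1 was at 1.41, 1.31 and 5.18 RPKM unstimulated and at 10.6, 10.5 and 10.4 stimulated (log2 1.82), and Tfdp1 (2.23) and E2f3 (1.61) rose too. Neither list was tested against the 31.2% of all genes called higher or the 48.9% called lower.

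Of 12 genes known to carry PRC2 marks in T cells 9 were tested, of which 6 rose and 3 fell (median log2 change 1.90). Over all genes tested 31.2% were called higher and 48.9% lower. Il13 and Il4 met the filter, an RPKM of 1 in 3 or more libraries, only through the stimulated group. Their entry into the count and the median thus depended on the group where they were high. Il5, Cdkn2a and Cdkn2b did not meet the filter. Il13, a cytokine gene, went from 0.136 ± 0.052 to 56.3 ± 5.82 RPKM (SD, n = 3 each, log2 5.65). Cdkn1a, a cell cycle inhibitor, was at 2.24, 1.89 and 2.42 RPKM unstimulated and at 63.1, 67.7 and 75.1 stimulated (log2 4.45), and Ifng rose by 3.70 on the log2 scale. The genes that fell were Eomes (log2 -1.88), Bcl2l11 (-1.88) and Prdm1 (-0.63). Cdkn2a and Cdkn2b stayed at or below 0.113 RPKM in every library. Histone marks were not measured in these samples, so these are levels of RNA only.

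The 2nd comparison asked whether the alleles of each member contributed equally and whether that balance changed with stimulation. Of the 9 autosomal members 2, Jarid2 and Ezh2, changed their cast share, both toward cast, with edgeR's quasi-likelihood test of allele by group and Benjamini-Hochberg adjustment over all 12834 genes tested. Among autosomal genes 10.4% were called, and no test sets the count of 2 apart from that. Intervals and limits on shares cover counting error only. How often cast shares or levels per M lack overlap among all genes was not counted, so absence of overlap below is a description only. For RPKM it held for 83.5% of all genes tested.

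**Figure D5:**
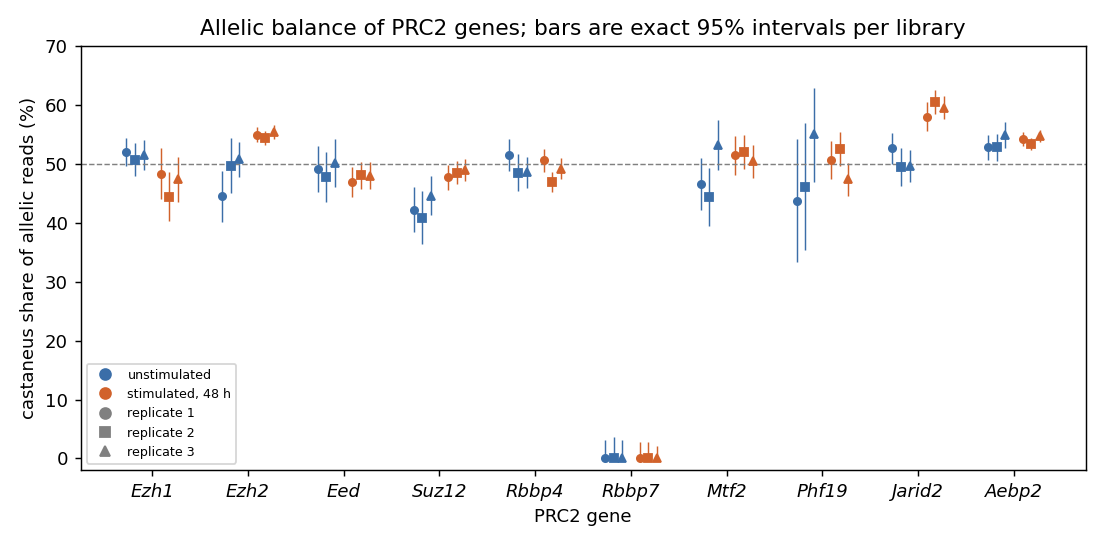
Castaneus share of allelic reads for the 10 PRC2 genes in each library, in percent, with exact 95% binomial intervals, blue unstimulated, orange stimulated and a symbol shape per replicate. Jarid2 lies at 49.5% to 52.6% unstimulated and 58.0% to 60.5% stimulated, and X-linked Rbbp7 is at 0 in every library.

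The largest change among the members was that of Jarid2. Its cast share was 52.6%, 49.5% and 49.6% of 1469, 997 and 1354 allelic reads unstimulated, and 58.0%, 60.5% and 59.6% of 1575, 2229 and 2519 reads stimulated. The groups do not overlap, and the mean went from 50.6% ± 1.78 to 59.3% ± 1.27 (SD, n = 3 each, log2 change of the cast to mus ratio 0.51, SE 0.10, edgeR adjusted p = 0.00402). The total per M of allelic reads was 114.2 ± 9.91 unstimulated and 117.9 ± 10.6 stimulated, with overlapping libraries. Reads from the mus allele were at 58.5, 52.5 and 58.1 per M unstimulated and at 44.4, 48.9 and 50.3 stimulated, without overlap. Reads from the cast allele were at 65, 51.3 and 57.2 unstimulated and at 61.3, 74.7 and 74.1 stimulated, with overlap. The level of each allele by itself was not tested.

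The cast share of Ezh2 was 44.5%, 49.7% and 50.7% of 524, 453 and 1149 reads unstimulated, and 55.0%, 54.4% and 55.4% of 5574, 6689 and 7179 reads stimulated. The stimulated libraries lay within 1 point of each other and the unstimulated ones were spread more widely. The mean went from 48.3% ± 3.36 to 54.9% ± 0.49 (SD, n = 3 each, log2 change 0.37, SE 0.09, edgeR adjusted p = 0.0208). The call did not hold without unstimulated replicate 1 (log2 0.27, adjusted p = 0.0726), nor without stimulated replicate 1 (0.37, 0.0700), 2 (0.39, 0.0555) or 3 (0.36, 0.0754). Both alleles were higher after stimulation, mus 5.14 and cast 6.52 times as high per M of allelic reads.

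Suz12 favoured mus before stimulation, with cast shares of 42.2%, 40.8% and 44.6% of 649, 468 and 868 reads, against 47.7%, 48.5% and 48.9% of 2095, 2631 and 2865 reads stimulated. The log2 ratio of cast to mus was -0.43 unstimulated (SE 0.08, edgeR adjusted p = 0.000837) and -0.09 stimulated (SE 0.07, adjusted p = 0.334). The shares do not overlap between the groups, but the change did not pass (0.33, SE 0.11, adjusted p = 0.0664). Ezh1 was at 51.4% ± 0.68 and 46.7% ± 2.02 (SD, n = 3 each), also without overlap, and its change did not pass (log2 -0.27, SE 0.12, edgeR adjusted p = 0.186).

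Aebp2 favoured cast in both groups, at 53.5% ± 1.25 and 54.1% ± 0.70 (SD, n = 3 each). The log2 ratio was 0.20 unstimulated (SE 0.05, edgeR adjusted p = 0.00459) and 0.24 stimulated (SE 0.05, adjusted p = 0.000671), with no change past the test (0.03, SE 0.07, adjusted p = 0.844). Unstimulated, 2 of 9 autosomal members were called (Suz12 toward mus and Aebp2 toward cast), where 30.7% of autosomal genes were. Stimulated, 3 of 9 were called toward cast (Jarid2, Ezh2 and Aebp2), where 35.9% of autosomal genes were called in either direction. These shares are near the background. Eed, Rbbp4, Mtf2 and Phf19 passed none of the 3 tests, with mean cast shares between 47.6% and 51.3% in both groups. The 343 unstimulated reads of Phf19 left its intervals wide, from 33.4% to 62.9% over the 3 libraries.

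All allele-assigned reads of Rbbp7 were from the mus allele. Summed over the 3 libraries of a group, Rbbp7 had 0 cast reads of 336 unstimulated reads, which allows a share of up to 0.893%. Of 435 stimulated reads 0 were cast, which allows up to 0.690%. By single library the exact 95% intervals reached higher, to 3.08% to 3.59% unstimulated and 2.05% to 2.86% stimulated. Against a floor of 3 counts over a group, the mus allele was at least 112-fold higher unstimulated and at least 145-fold higher stimulated. Among these reads, expression of Rbbp7 from the inactive X was not detectable at this depth in either group. The reads are few and did not follow the RPKM rise of Rbbp7, so the statement covers them alone. Rbbp7 was 1 of 118 genes without a cast read among the 298 X-linked genes, Xist aside, whose allelic reads numbered 20 or more in each library.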

How the data were processed

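RNA-seq of 3 unstimulated and 3 stimulated libraries was used, grouped by the labelled treatment. Libraries came from a stranded total RNA kit with ribosomal RNA removed, per the labels' protocols. STAR 2.7.1a, featureCounts and mm10 are named in the submitters' processing notes. The authors deposited RPKM for both alleles together and whole-number counts of mus and cast reads per gene, per the file headers. The sources used here do not give the strand setting, the allele assignment, the handling of reads with several positions or the total behind the RPKM.

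Diploid expression was tested with limma 3.58.1 (trend, two-sided) on log2(RPKM + 1) for genes that reached an RPKM of 1 in 3 or more libraries. For allelic counts the two-sided quasi-likelihood test of edgeR 4.0.16 was used with 1 term per library (R 4.3.3), for genes with at least 30 allelic reads per group. DESeq2 1.42.0 was an alternative. Shares of summed RPKM were compared with exact permutation tests. Cast shares per library carry Clopper-Pearson 95% intervals. Of the 192 list genes 187 matched by symbol and 5 by identifier or older symbol. The text names all members, up to 3 called genes of largest change per list, and the 5 genes most like Ezh2 and Ezh1. A list gene that this rule names is not reported here. Other genes were named after their values were seen. The rule for the members uses no measured value, but members and lists were chosen with earlier results of these data known. Replicates are labelled biological, but nothing says that equal numbers are 1 animal. Libraries of equal number did not deviate together in RPKM (r = 0.00603, 0.0611 and 0.0908 over 13288 genes) but did in cast to mus ratios (0.282, 0.298 and 0.182 over 9043 genes), so the numbers pair the allelic data by that measure alone. The scripts were tested on simulated data.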

Additional observations from a re-analysis of the deposited data

How the results depend on the processing

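Alternatives were another pseudocount, no filter, median centring, quantile normalisation, count models on summed allelic reads, other read minimums, the replicate block and leaving out each library. The block changed no member's call (with it 10464 genes changed in RPKM and 1666 in cast share, against 10642 and 1314), and Jarid2 and Ezh2 had block-adjusted p-values of 0.000559 and 0.00446 with edgeR. On summed allelic reads 8 members were called higher with edgeR and TMM or with DESeq2, and 7 with edgeR and library sizes alone. Of the members' expression results under alternatives, on RPKM or on summed allelic reads, 131 kept direction and call. The exceptions were Jarid2, which passed in 3 (0.28 with median centring, 0.29 with TMM, 0.26 with DESeq2) and otherwise, uncalled, ranged from -0.024 to 0.089 when 1 library was left out (-0.0089 and -0.0091 without stimulated replicates 2 and 3), and Rbbp7, which reversed in 3 on summed allelic counts (-0.064 with edgeR and TMM, -0.31 with edgeR and library sizes alone, -0.091 with DESeq2). The cause was not tested. The PRC2.1 share differed by -0.12 points, with a range of -1.12 to 0.9985 when 1 library was left out (0.9985 without unstimulated replicate 3, 0.151 without stimulated replicate 2 and 0.00387 without stimulated replicate 3), and by -34.99 with Phf1 added. Members with a higher cast share numbered 1 to 2 when 1 library was left out, since Ezh2 was lost 4 times. Uncalled allelic ratios near 0 changed sign. With TMM factors per allele the unstimulated ratios of Rbbp4, Eed and Phf19 turned to 0.048, 0.018 and 0.0176, and the stimulated ratio of Rbbp4 to 0.0013. When 1 library was left out, unstimulated ratios ranged from -0.17 to 0.017 for Ezh2, -0.026 to 0.066 for Jarid2, -0.30 to 0.079 for Phf19 and -0.085 to 0.0045 for Rbbp4, and the stimulated ratio of Phf19 from -0.057 to 0.092. The change ranged from -0.068 to 0.31 for Phf19 and from -0.086 to 0.020 for Rbbp4. Depth limits mainly the cast shares of Phf19 (343 unstimulated reads) and Rbbp7 (336).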
